A study of Homo sapiens with 8 samples.

Results

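Described here are 10 genes of epithelial cell junctions and of the change between epithelial and mesenchymal states, out of 18132 genes measured in 2 human liver cancer lines. They are the cadherins CDH1 and CDH2, the tight junction genes CLDN1, OCLN and TJP1, the splicing regulators ESRP1 and ESRP2, the transcription factors ZEB1 and SNAI2, and the intermediate filament gene VIM. Members were found by symbol in the annotation of the array, which gave them 25 probe sets that carry exactly 1 gene symbol. One further probe set, assigned to both OCLN and its pseudogene OCLNP1, was left out. The groups were Huh7.5.1 cells kept for 48 h with 10 μM CU27, Huh7.5.1 cells kept for 48 h with DMSO, and Hep3B cells kept for 48 h with DMSO, with 2 arrays each. Hep3B and Huh7.5.1 are established hepatocellular carcinoma lines, and Huh7.5.1 is a subline of Huh7 used widely to grow hepatitis C virus. CU27 is a compound known here by its code name alone. The labels call the arrays biological replicates, without saying whether they came from separate cultures, so p-values measure the spread between these arrays. They name both DMEM and MEM as media with serum and do not say which line was grown in which.

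CU27 was not compared with DMSO in Hep3B. Each deposited Hep3B CU27 column could be computed from the Hep3B DMSO pair at 49395 of 49395 probe sets, within a tolerance of 1e-06. For that reason neither was used. The relations also run the other way, so they do not show which pair of columns was measured. Comparisons with Hep3B below take the deposited DMSO pair as it stands. All values below are deposited signals on the log2 scale. Column medians were 6.25 to 6.26 in Huh7.5.1 CU27, 6.23 to 6.27 in Huh7.5.1 DMSO, and 5.82 to 5.85 in Hep3B DMSO. RNA integrity was read from ACTB controls as the 3′ minus the 5′ signal. It gave 0.98 to 1.21 in Huh7.5.1 CU27, 0.94 to 1.06 in Huh7.5.1 DMSO, and 1.60 to 2.28 in Hep3B DMSO. A group mean under 6.11, the median of all values, is called below the floor, and a gene was tested when at least 1 group mean reached it. Of the hepatocyte markers ALB, APOA1, TTR, TF, SERPINA1, FGB and AHSG, 7 of 7 reached the floor in every group. HNF4A, also on that marker list, had no probe set with exactly 1 gene symbol.

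Epithelial cells hold to each other through adherens junctions, built on the cadherin encoded by CDH1, and seal the space between them with tight junctions made of claudins, occludin and the scaffold proteins that anchor them. In hepatocytes tight junctions close off the bile canaliculi from the blood. In an epithelial-mesenchymal transition the repressors ZEB1 and SNAI2 bind E-box motifs and silence epithelial genes, the ESRP proteins that maintain epithelial splicing are lost, and CDH2 and VIM are gained. Liver cancer lines differ widely along this axis, and hepatocytes themselves express both CDH1 and CDH2.

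Promoter windows of 300 bases, reaching from 250 bases before a RefSeq start site to 50 after it, were taken from RefSeq (GRCh38.p14) for CLDN1, OCLN, TJP1, ZEB1, VIM and CDH2. The 6 genes had 17 windows. No window of CDH1, ESRP1, ESRP2 or SNAI2 was searched, so nothing is said of motifs in those members. A single window is printed for each of 4 of these genes. CLDN1 and VIM are printed because they changed with CU27. OCLN and TJP1 are the junction genes with a window that holds the E-box CAGGTG, the core recognised by ZEB1 and SNAI2. Capitals mark CAGGTG and the GC box GGGCGG, the core recognised by the Sp1 family, each on either strand (CACCTG and CCGCCC), and no marked motifs overlap in the printed windows. The windows lie at chr3:190322397-190322696, minus strand, for CLDN1, chr10:17227991-17228290, plus strand, for VIM, chr5:69492297-69492596, plus strand, for OCLN, and chr15:29969000-29969299, minus strand, for TJP1.
CLDN1: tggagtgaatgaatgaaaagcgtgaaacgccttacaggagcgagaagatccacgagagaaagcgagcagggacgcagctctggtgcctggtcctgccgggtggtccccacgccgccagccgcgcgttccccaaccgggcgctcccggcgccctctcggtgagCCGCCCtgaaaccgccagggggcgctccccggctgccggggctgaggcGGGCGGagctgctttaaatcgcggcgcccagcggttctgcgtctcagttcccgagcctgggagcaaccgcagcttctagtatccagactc
VIM: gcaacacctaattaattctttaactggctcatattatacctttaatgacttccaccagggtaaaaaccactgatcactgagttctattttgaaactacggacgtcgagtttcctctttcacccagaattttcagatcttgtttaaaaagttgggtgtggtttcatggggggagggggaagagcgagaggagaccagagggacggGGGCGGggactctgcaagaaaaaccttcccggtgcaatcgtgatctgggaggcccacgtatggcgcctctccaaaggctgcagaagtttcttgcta
OCLN: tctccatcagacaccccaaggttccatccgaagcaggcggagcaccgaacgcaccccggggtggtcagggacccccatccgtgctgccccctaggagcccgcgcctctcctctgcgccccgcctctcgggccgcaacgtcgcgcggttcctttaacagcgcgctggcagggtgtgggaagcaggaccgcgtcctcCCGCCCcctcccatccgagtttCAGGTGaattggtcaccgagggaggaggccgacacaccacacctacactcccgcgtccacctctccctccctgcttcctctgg
TJP1: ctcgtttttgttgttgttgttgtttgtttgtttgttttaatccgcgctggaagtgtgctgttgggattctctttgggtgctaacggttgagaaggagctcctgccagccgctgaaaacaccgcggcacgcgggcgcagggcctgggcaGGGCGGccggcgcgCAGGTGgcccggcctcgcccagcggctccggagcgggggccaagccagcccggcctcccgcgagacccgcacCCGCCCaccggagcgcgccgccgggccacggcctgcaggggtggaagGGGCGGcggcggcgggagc
The E-box was present in 5 of the 17 windows, from the 3 genes OCLN, TJP1 and ZEB1, and in 20.6% of 35116 windows of all genes. The printed OCLN window holds it at position -33 from the start site and the TJP1 window at position -88, counted to the first base of the motif. The other OCLN window holds it at positions -133 and 35, and the other TJP1 windows do not hold it. The CLDN1 window holds the GC box at positions -88 and -40 and no CAGGTG, and the VIM window the GC box at position -46 and no CAGGTG. The GC box was present in 12 of the 17 windows, from all 6 genes, and in 45.0% of windows of all genes. Factor binding was not measured, and the arrays do not say which start site was used.

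In Huh7.5.1 cells CLDN1 fell and VIM rose with CU27, and the other 7 members tested did not pass the test. CLDN1, the claudin that forms a main barrier strand of hepatocyte tight junctions, was 2.18-fold lower with CU27. VIM, the intermediate filament protein of mesenchymal cells, was 1.32-fold higher. Thus 2 of 9 members tested passed (limma, adjusted p threshold 0.05), 1 lower and 1 higher, while 24.7% of the 11383 genes tested passed in either direction. By probe set, 6 of 23 member probe sets passed, 2 higher and 4 lower, against 21.7% of the 27836 probe sets tested, 10.4% higher and 11.3% lower. These shares are close to the background and give no result about the members as a group. The 9 members had a median difference of -0.07 and all genes tested one of 0.02. In whole cultures, a lower level in every cell and fewer cells that hold the transcript cannot be told apart.

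**Figure D1:**
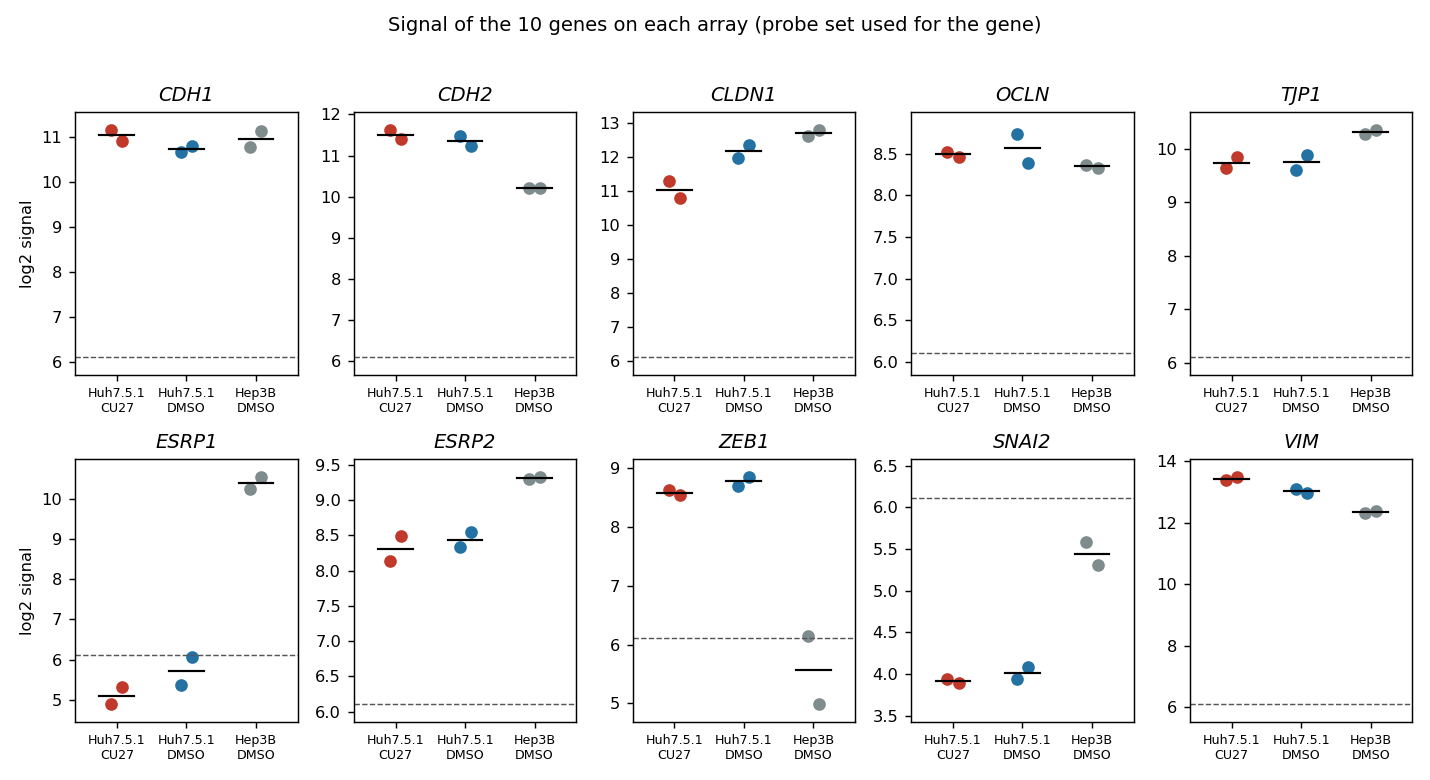
Log2 signal (vertical axes, a separate range for each gene) of the probe set used for each gene on each of the 6 arrays, with Huh7.5.1 CU27 in red, Huh7.5.1 DMSO in blue and Hep3B DMSO in grey; points are arrays, black lines group means, and the dashed line the floor of 6.11. CLDN1 is lowest in Huh7.5.1 CU27, ESRP1 is high in Hep3B DMSO alone, ZEB1 is high in both Huh7.5.1 groups, and SNAI2 lies below the floor throughout.

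CLDN1 was read by 4 probe sets, and all 4 were lower with CU27. The probe set used for the gene, 11728232_a_at, read 11.29 and 10.78 in the CU27 arrays, against 11.97 and 12.34 in the DMSO arrays. Both CU27 arrays lay under both DMSO arrays. The difference was -1.12 ± 0.18 (SE, 2 arrays a group; limma, adjusted p = 0.00307). Probe set 11746433_a_at showed the widest gap, with 9.52 and 8.86 in CU27, against 10.35 and 11.16 in DMSO. Its difference was -1.57 ± 0.30 (limma adjusted p over probe sets = 0.00919). Probe set 11728234_a_at read 10.55 and 9.93 in CU27, against 11.34 and 11.80 in DMSO, a difference of -1.33 ± 0.21. Probe set 11728233_a_at read 8.76 and 8.27 in CU27, against 9.45 and 10.11 in DMSO, a difference of -1.26 ± 0.26. In all 4 probe sets CU27 replicate 2 was the lowest array and DMSO replicate 2 the higher of the DMSO arrays, and the groups did not overlap. Across 15 alternatives the call of CLDN1 was kept, with limma adjusted p from 0.00208 to 0.0325. The size was -0.87 without CU27 replicate 2 and -1.38 without CU27 replicate 1.

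VIM was read by 2 probe sets, and both were higher with CU27. Probe set 11731394_a_at, used for the gene, read 13.39 and 13.49 in CU27, against 13.10 and 12.97 in DMSO. The difference was 0.40 ± 0.08 (SE, 2 arrays a group; limma, adjusted p = 0.00689). Probe set 11755943_x_at read 13.08 and 13.09 in CU27, against 12.74 and 12.57 in DMSO, a difference of 0.43 ± 0.08. The CU27 and DMSO arrays did not overlap in either probe set. The call of VIM rested in part on DMSO replicate 2, without which the difference was 0.34 (limma adjusted p = 0.0716), and on the intensity trend of the fit, without which the adjusted p was 0.061. Over the 15 alternatives the adjusted p ran from 0.00551 to 0.0716.

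**Figure D2:**
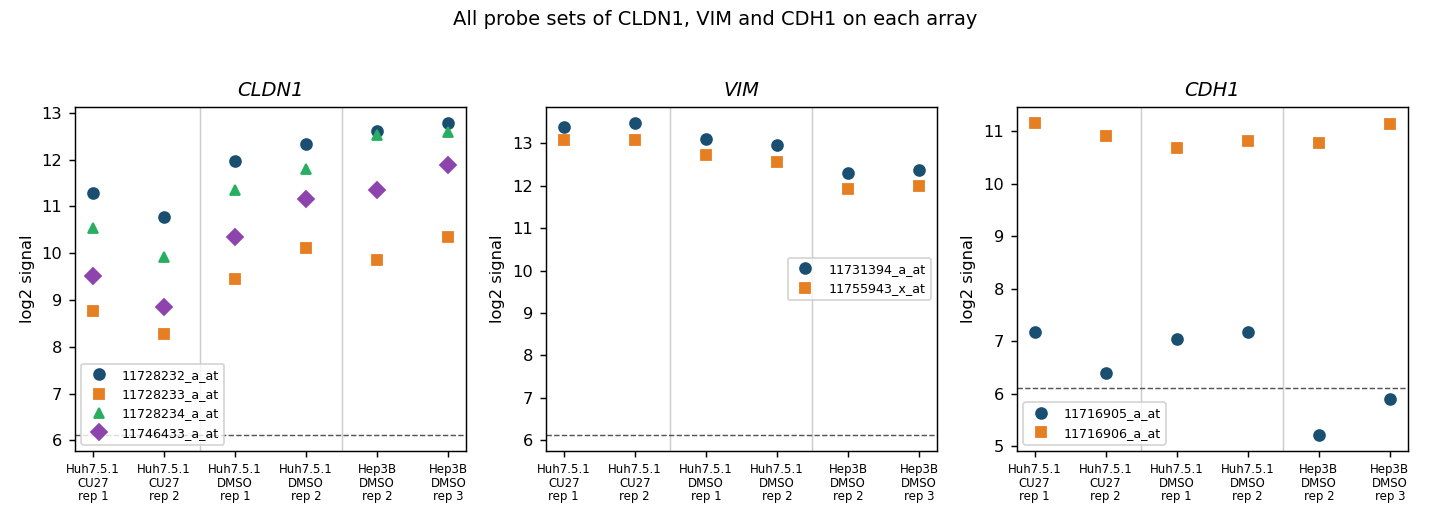
Log2 signal (vertical axes) of every probe set of CLDN1, VIM and CDH1 on each of the 6 arrays (horizontal axes), with a marker shape and colour for each probe set and the floor of 6.11 as a dashed line. The 4 CLDN1 probe sets move in parallel and are lower in CU27, both VIM probe sets are higher in CU27, and the CDH1 probe set 11716905_a_at rises over the floor in Huh7.5.1 while 11716906_a_at does not follow it.

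The other tight junction members showed no call with CU27. OCLN, which encodes occludin, read 8.52 and 8.46 in CU27, against 8.73 and 8.39 in DMSO, so the CU27 values lay between the DMSO values. Its difference was -0.07 ± 0.16 (limma adjusted p = 0.795). Both OCLN probe sets end in _s_at, a mark of sequence shared with other transcripts. No value is therefore left for OCLN without such probe sets. TJP1, which encodes the scaffold ZO-1, read 9.63 and 9.84 in CU27, against 9.60 and 9.88 in DMSO by the probe set used, with a difference of -0.00 ± 0.14 (limma adjusted p = 0.989). Its other probe set, 11754242_a_at, read 7.46 and 7.93 in CU27, against 7.09 and 7.38 in DMSO. These values did not overlap, but the difference of 0.46 ± 0.20 did not pass (limma adjusted p over probe sets = 0.131).

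Neither cadherin passed the test with CU27. CDH1, which encodes E-cadherin, read 11.16 and 10.91 in CU27, against 10.68 and 10.81 in DMSO by the probe set used. Both CU27 arrays were above both DMSO arrays, and the difference of 0.29 ± 0.15 did not pass (limma adjusted p = 0.190). CDH1 probe set 11716905_a_at read 7.17 and 6.39 in CU27, against 7.04 and 7.18 in DMSO, with a difference of the other sign, -0.33 ± 0.30. CDH2, which encodes N-cadherin, read 11.62 and 11.40 in CU27, against 11.47 and 11.23 in DMSO, and the groups overlapped. Its difference was 0.16 ± 0.12 (limma adjusted p = 0.388).

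The splicing regulators and the transcription factors gave no call with CU27 either. ESRP1 read 4.90 and 5.32 in CU27, against 5.38 and 6.06 in DMSO, below the floor in both groups, so no fold is given. It was tested because Hep3B DMSO reached the floor. The arrays did not overlap, and its difference of -0.61 ± 0.25 did not pass (limma adjusted p = 0.102). With DMSO replicate 1 left out it was -0.95 and passed (limma adjusted p = 0.041), and with DMSO replicate 2 left out it was -0.27 (limma adjusted p = 0.548). With the replicate number as a block it passed (limma adjusted p = 0.0302), and over the 15 alternatives the adjusted p ran from 0.0302 to 0.548. The second ESRP1 probe set had a difference of -0.02 ± 0.25. ESRP2 read 8.14 and 8.49 in CU27, against 8.33 and 8.55 in DMSO, overlapping values with a difference of -0.13 ± 0.16 (limma adjusted p = 0.629). ZEB1 read 8.62 and 8.54 in CU27, against 8.70 and 8.85 in DMSO, with a difference of -0.19 ± 0.31 (limma adjusted p = 0.707). The ZEB1 arrays did not overlap between CU27 and DMSO. The 7 ZEB1 probe sets had differences from -0.19 to 0.08, of both signs, and 0 of the 6 tested passed. SNAI2, the repressor also called SLUG, read 3.94 and 3.89 in CU27, against 3.94 and 4.09 in DMSO, and was not tested because it lay below the floor in all 3 groups. Among the 9 members tested, the CU27 and DMSO arrays did not overlap for 5, while they did not overlap for 63.8% of all genes tested.

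In DMSO, Huh7.5.1 cells had less ESRP1, ESRP2, TJP1 and CLDN1 and more ZEB1, CDH2 and VIM than Hep3B cells. A total of 7 of 9 members tested passed, 3 higher and 4 lower in Huh7.5.1, and the background was large, with 64.0% of genes passing in either direction, 41.0% higher and 22.9% lower. By probe set, 19 of 23 passed, 11 higher and 8 lower, against 64.2% of all probe sets tested, 44.8% higher and 19.4% lower. The Huh7.5.1 and Hep3B arrays did not overlap for 8 of 9 members, against 84.8% of all genes tested. The 9 members had a median difference of -0.21. The signal medians of the lines differ, and the median difference over all genes tested was 0.22. Centring each array on its own median moved it to -0.22. For CLDN1, TJP1, CDH2, VIM, OCLN and CDH1 a value relative to the median over all genes tested is therefore given too. The RNA integrity measure above also separated the lines, and the lines may have been grown in different media. Whether these had a part in the differences was not tested.

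ESRP1, which keeps epithelial exons in transcripts such as that of FGFR2, differed most between the lines. It read 5.38 and 6.06 in Huh7.5.1 DMSO, below the floor on average, against 10.25 and 10.54 in Hep3B DMSO. ESRP1 was at least 19.6-fold lower in Huh7.5.1 (difference -4.68 ± 0.25, SE, 2 arrays a group; limma, adjusted p = 8.6e-07). Its other probe set read 5.34 and 6.03, against 9.56 and 9.75, and was at least 11.7-fold lower in Huh7.5.1. ESRP2, its paralog, showed a smaller gap in the same direction, with 8.33 and 8.55 in Huh7.5.1 and 9.31 and 9.33 in Hep3B. ESRP2 was 1.84-fold lower in Huh7.5.1 (difference -0.88 ± 0.16, limma adjusted p = 0.00147). The values of the lines did not overlap for either gene. Both calls held in all 14 alternatives run for this comparison, with an adjusted p of up to 0.000102 for ESRP1 and up to 0.0163 for ESRP2.

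ZEB1, a zinc finger repressor of epithelial genes, ran the other way. Its probe set 11721547_s_at read 8.70 and 8.85 in Huh7.5.1 DMSO, against 6.15 and 4.99 in Hep3B DMSO, where the mean lay below the floor and the arrays differed. ZEB1 was at least 6.34-fold higher in Huh7.5.1 (difference 3.21 ± 0.31, limma adjusted p = 3.04e-05). The 6 tested ZEB1 probe sets all passed, with differences from 2.31 to 3.52, and the seventh, below the floor in all groups, had a difference of 1.69. Probe set 11749644_s_at had the largest of these, with 8.64 and 8.10 in Huh7.5.1, against 5.09 and 4.62 in Hep3B. All 7 ZEB1 probe sets end in _x_at or _s_at, marks of sequence shared with other transcripts, so no value is left for ZEB1 without such probe sets. In the 13 other alternatives the call of ZEB1 was kept, with an adjusted p of up to 0.000457. SNAI2 was below the floor in both lines, with 3.94 and 4.09 in Huh7.5.1 and 5.58 and 5.31 in Hep3B, so no fold is given.

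CDH2 and VIM, gained in mesenchymal cells, were higher in Huh7.5.1. CDH2 read 11.47 and 11.23 in Huh7.5.1 DMSO, against 10.22 and 10.22 in Hep3B DMSO. The difference was 1.13 ± 0.12, or 2.19-fold (limma adjusted p = 6.55e-05). It was 0.91 relative to the median of all genes and 0.71 with arrays centred on their medians. The second CDH2 probe set, 11726615_a_at, read 10.58 and 10.27 in Huh7.5.1, against 9.11 and 9.11 in Hep3B. It is the 1 member probe set whose 2 Hep3B DMSO columns held exactly the same value, as 1086 probe sets did in that pair of columns. In the Huh7.5.1 DMSO pair and in the Huh7.5.1 CU27 pair 0 probe sets did. VIM read 13.10 and 12.97 in Huh7.5.1, against 12.31 and 12.37 in Hep3B. The difference was 0.69 ± 0.08 (limma adjusted p = 6.49e-05), or 0.47 relative to the median of all genes, and it was 0.28 with arrays centred on their medians (limma adjusted p = 0.0118). Both genes had values that did not overlap between the lines.

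CLDN1 and TJP1 were both lower in Huh7.5.1. CLDN1 read 11.97 and 12.34 in Huh7.5.1 DMSO, against 12.60 and 12.79 in Hep3B DMSO, a difference of -0.54 ± 0.18 (limma adjusted p = 0.0232). It was -0.76 relative to the median of all genes and -0.96 with arrays centred. This call was lost without Huh7.5.1 DMSO replicate 1 (-0.36, adjusted p = 0.166), without Hep3B DMSO replicate 2 (-0.63, adjusted p = 0.0578) and without Hep3B DMSO replicate 3 (-0.45, adjusted p = 0.151), within a limma range of 0.000914 to 0.166. CLDN1 probe set 11728233_a_at, with -0.32 ± 0.26, did not pass, while the other 3 did. TJP1 read 9.60 and 9.88 in Huh7.5.1, against 10.28 and 10.35 in Hep3B, a difference of -0.57 ± 0.14 (limma adjusted p = 0.00714). It was -0.80 relative to the median of all genes and -0.99 with arrays centred. The TJP1 call was lost without Huh7.5.1 DMSO replicate 1 (-0.44, adjusted p = 0.0647) and without Hep3B DMSO replicate 3 (-0.54, adjusted p = 0.0514), within a limma range of 0.000291 to 0.0647. Its other probe set read 7.09 and 7.38, against 8.24 and 8.18, a difference of -0.98 ± 0.20.

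OCLN and CDH1 did not pass between the lines. For OCLN this too rests on _s_at probe sets alone. OCLN read 8.73 and 8.39 in Huh7.5.1 DMSO, against 8.37 and 8.33 in Hep3B DMSO, a difference of 0.21 ± 0.16 (limma adjusted p = 0.265). Relative to the median of all genes it was -0.01, and it was -0.21 with arrays centred on their medians, so its direction depends on the scaling. OCLN probe set 11747435_s_at read 7.52 and 7.31 in Huh7.5.1, against 7.73 and 7.65 in Hep3B, a difference of -0.28 that did not pass either (limma adjusted p over probe sets = 0.147). For CDH1 the 2 probe sets disagreed. The one used, 11716906_a_at, read 10.68 and 10.81 in Huh7.5.1, against 10.77 and 11.15 in Hep3B, overlapping values with a difference of -0.21 ± 0.15 (limma adjusted p = 0.237), or -0.44 relative to the median of all genes. It passed as lower in Huh7.5.1 with arrays centred on their medians (-0.63, limma adjusted p = 0.00489) and after quantile normalization (-0.37, limma adjusted p = 0.0431). The other, 11716905_a_at, read 7.04 and 7.18 in Huh7.5.1, against 5.21 and 5.90 in Hep3B, below the floor, and was higher in Huh7.5.1 by at least 2.00-fold (difference 1.55 ± 0.30, limma adjusted p over probe sets = 0.00181). With the mean of both probe sets CDH1 passed as higher in Huh7.5.1 (0.67, limma adjusted p = 0.0224). These data therefore give no single direction for CDH1 between the lines.

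**Figure D3:**
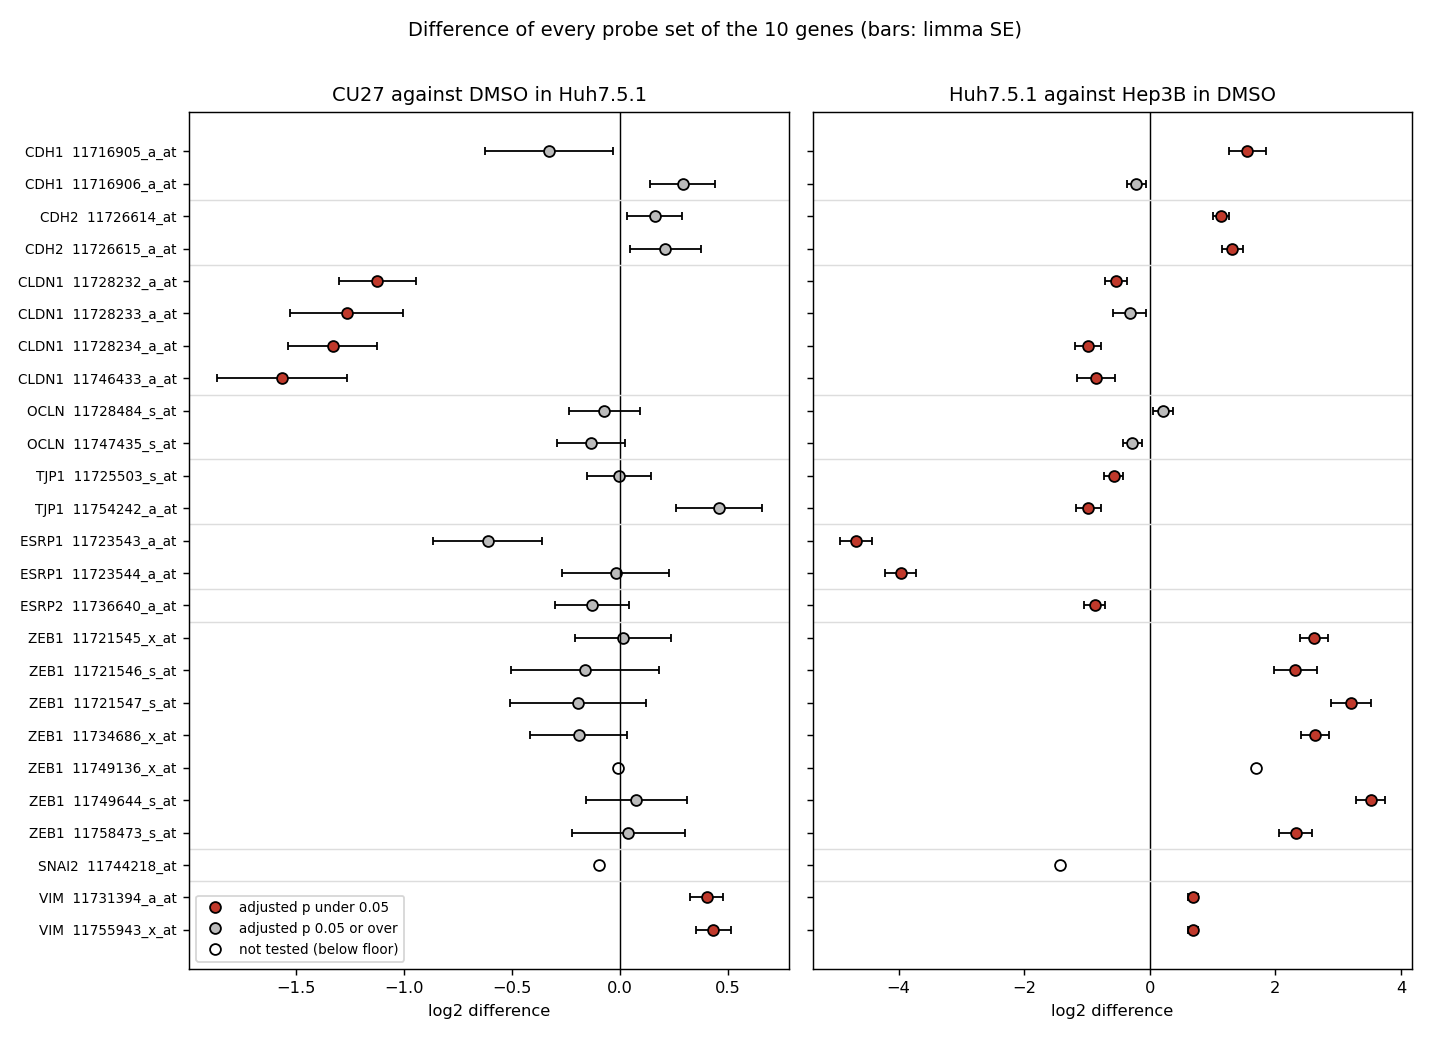
Log2 difference (horizontal axes, a separate range for each panel) of each of the 25 probe sets, for CU27 against DMSO in Huh7.5.1 on the left and Huh7.5.1 against Hep3B in DMSO on the right; bars are limma standard errors, red points passed an adjusted p of 0.05 over all probe sets, grey points did not, and open points were not tested because all group means lay below the floor. The 4 CLDN1 and 2 VIM probe sets passed with CU27, and between the lines the CDH1 probe sets lie on opposite sides of 0.

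The order of the groups differed among the members. CLDN1 averaged 11.03 in Huh7.5.1 CU27, 12.15 in Huh7.5.1 DMSO and 12.70 in Hep3B DMSO, and VIM averaged 13.44, 13.03 and 12.34 in the same groups. For both, the neighbouring groups in this order passed the test, with the exceptions given for single arrays above. For ESRP1, ESRP2, ZEB1, CDH2 and TJP1, the CU27 comparison did not pass and all 4 Huh7.5.1 arrays lay on 1 side of both Hep3B DMSO arrays. For CDH1 and OCLN neither comparison passed. Huh7.5.1 CU27 was not tested against Hep3B DMSO. The CU27 and line comparisons share the Huh7.5.1 DMSO arrays, so an array high there lowers the first difference and raises the second.

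Related genes were read from 8 lists that hold no member. The lists named 142 genes, of which 134 had a probe set and 97 were tested. With CU27, 11 passed as higher and 14 as lower, 1 of these below the floor in both groups, and 72 did not pass, against 12.6% of all genes higher and 12.1% lower. Of 17 tight junction genes, CLDN23 rose by 0.78 ± 0.15, while CLDN7 fell by 1.15 and the cingulin-like CGNL1 fell by 1.13. Of 13 adherens junction genes, the catenins JUP and CTNNA1 rose by 0.54 ± 0.14 and 0.36 ± 0.11, and the adhesion molecule NECTIN2 fell by 0.90. Of 9 desmosome and gap junction genes, the plakin DSP rose by 0.57 ± 0.11, and the connexin GJA1 fell by 1.24. The desmoglein DSG3, below the floor in CU27, was at least 1.03-fold lower. Of 12 cell polarity genes, 3 rose and 0 fell, namely PARD3 at 0.65 ± 0.14, LLGL2 at 0.69 ± 0.15 and PARD6B at 0.64 ± 0.16, and the list had a median of 0.18.

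Epithelial regulators and mesenchymal genes made up the remaining lists, again beside 12.6% of all genes higher and 12.1% lower. Of 13 genes listed for epithelial transcription and splicing, 0 rose and 3 fell. SRSF1, a general splicing factor not particular to epithelial cells, fell by 0.88. OVOL2, a repressor of ZEB1, fell by 0.70, and the grainyhead factor GRHL1 by 0.58. Of 9 epithelial surface and trafficking genes, the protease inhibitor SPINT1 rose by 0.84 ± 0.13, and the membrane traffic protein MAL2 and the receptor ERBB3 fell by 1.39 and 0.59. Of 7 transcription factors of epithelial-mesenchymal transition, SNAI1, a Snail family relative of SNAI2, rose by 1.13 ± 0.16, with 7.57 and 7.78 in CU27, against 6.57 and 6.52 in DMSO. In that list FOXQ1 and SOX4 fell by 1.56 and 0.70, and the median was -0.26. PRRX1 also passed as lower, but it lay below the floor in CU27 and DMSO and was tested because Hep3B reached the floor, so no size is given. Of 17 mesenchymal markers, the hyaluronan receptor CD44 rose by 1.93 ± 0.23, and the collagen cross-linking enzyme LOXL2, below the floor in DMSO, was at least 1.61-fold higher. In the same list the ectonucleotidase NT5E fell by 1.67. Medians of the other lists lay from -0.10 to 0.03.

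Of the 25 related genes named for CU27, 12 kept their call when any single array was left out, namely CLDN7, NECTIN2, GJA1, SRSF1, SPINT1, MAL2, SNAI1, SOX4, FOXQ1, LOXL2, CD44 and NT5E. The other 13 were lost without Huh7.5.1 DMSO replicate 2, with limma adjusted p from 0.0546 to 0.252. Of these, 9 were also lost without CU27 replicate 2 (limma adjusted p from 0.0608 to 0.142), 7 without DMSO replicate 1 (0.0622 to 0.175) and 2 without CU27 replicate 1 (0.0789 and 0.150). Leaving out either Hep3B array lost CTNNA1 and ERBB3 (limma adjusted p from 0.0577 to 0.0602). With the mean of all its probe sets PARD3 had a difference of -0.39 (limma adjusted p = 0.0971).

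**Figure D4:**
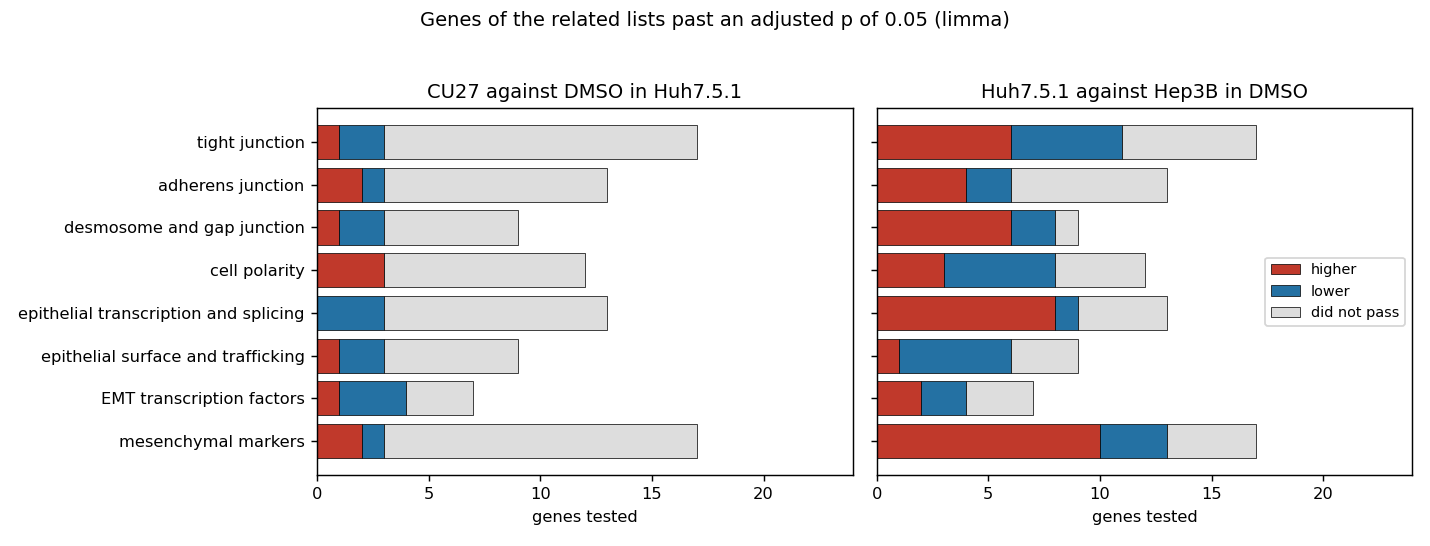
Number of genes tested in each related list (horizontal axes), for CU27 against DMSO in Huh7.5.1 on the left and Huh7.5.1 against Hep3B in DMSO on the right; red bars passed as higher, blue bars as lower and grey bars did not pass an adjusted p of 0.05. With CU27 the passing genes are few in each list and split between directions except in the polarity list (3 higher, 0 lower) and the transcription and splicing list (0 higher, 3 lower), while between lines most genes passed.

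Between the lines 40 of the 97 related genes were higher and 25 lower in Huh7.5.1, against 41.0% and 22.9% of all genes. With arrays centred on their medians the split turned over, to 25 higher and 46 lower, as it did for all genes, with 2648 higher and 4659 lower. Of 17 mesenchymal markers, 10 were higher and 3 lower, or 6 and 6 of 18 with arrays centred on their medians. VCAN, a matrix proteoglycan, was at least 18.3-fold higher in Huh7.5.1, and CD44 at least 1.19-fold, while MSN, which encodes the membrane-actin linker moesin, was at least 9.61-fold lower. Of 7 transcription factors of epithelial-mesenchymal transition, TCF4 was at least 5.66-fold higher and SNAI1 at least 1.35-fold higher in Huh7.5.1, while PRRX1 was at least 4.06-fold lower and TCF3 differed by -1.16 ± 0.13. Of 13 epithelial transcription and splicing genes, 8 were higher and 1 lower, or 6 and 4 with arrays centred. KLF5 and KLF4 were at least 23.4-fold and at least 14.4-fold higher in Huh7.5.1, and ELF5 at least 1.84-fold lower.

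Cadherins and claudins outside the members also separated the lines. CDH17, the liver-intestine cadherin, was at least 28.7-fold higher in Huh7.5.1, and CDH6 at least 6.84-fold lower. Of 17 tight junction genes, 6 were higher and 5 lower, or 3 and 7 of 16 with arrays centred on their medians. CLDN7 was at least 5.47-fold and CLDN6 at least 2.09-fold higher in Huh7.5.1, while CLDN11 was at least 1.82-fold and JAM2 at least 1.75-fold lower. Of 9 epithelial surface and trafficking genes, 1 was higher and 5 were lower, or 1 and 7 with arrays centred. Among these the protease ST14 was at least 4.80-fold lower and SPINT1 differed by -1.04 ± 0.13. In the polarity list 3 genes were higher and 5 lower, or 3 and 10 of 14 with arrays centred, with PRKCI at 2.33 ± 0.17 and PRKCZ at least 3.49-fold lower. In the desmosome and gap junction list 6 were higher and 2 lower, or 2 and 3 with arrays centred, with GJA1 at 3.20 ± 0.22 and GJB1 at -2.03 ± 0.29. In the adherens junction list 4 were higher and 2 lower, or 2 and 5 with arrays centred. Of the 40 related genes named for this comparison by the same rule, 38 kept their call with any single array left out. That rule takes the smallest p in these same arrays, so the calls kept do not speak for the other related genes.

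The genes whose profiles over the 6 arrays lay closest to 2 of the members were also found. The measure was the root mean square distance between values centred on each gene's own mean. For CLDN1, the member with the largest CU27 change, these were PLD1 at 0.106, ACAD9 at 0.118 and FRAS1 at 0.124 log2 units. PLD1, a phospholipase, read 7.10 and 6.86 in CU27, against 7.80 and 8.33 in the Huh7.5.1 DMSO arrays. Both Hep3B DMSO arrays read 8.61. For ESRP1, the member with the largest difference between lines, they were MSN at 0.266, CUX2 at 0.297 and ZNF135 at 0.335 log2 units. MSN read 3.88 and 3.91 in CU27 and 4.36 in both Huh7.5.1 DMSO arrays, against 9.29 and 9.45 in Hep3B DMSO.

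Markers of other cell types were low, with exceptions. Of 8 fibroblast markers, 1, PDGFRB, reached the floor in Huh7.5.1 CU27 and DMSO, and 2, LUM and PDGFRB, in Hep3B DMSO, while COL1A1, COL1A2 and COL3A1 did not in any group. Their summed linear signal was 249 to 254 in Huh7.5.1 CU27, 249 to 283 in Huh7.5.1 DMSO and 275 to 285 in Hep3B DMSO. Of 5 endothelial markers, 0, 1 and 0 reached the floor in the same groups, with summed signals of 207 to 219, 220 to 259 and 170 to 180. Of 5 leukocyte markers on the array, CD68 alone reached it in Huh7.5.1, and CD14 and CD68 in Hep3B DMSO, while PTPRC did not in any group. The leukocyte sums were 563 to 751 in CU27, 215 to 243 in Huh7.5.1 DMSO and 295 to 306 in Hep3B DMSO. They were thus higher with CU27, where CD68 averaged 9.10, against 6.85 in Huh7.5.1 DMSO. Summed hepatocyte marker signals were 46576 to 57186 in CU27, 67533 to 71286 in Huh7.5.1 DMSO and 65276 to 69158 in Hep3B DMSO, so they moved with CU27. Their part in the changes of CLDN1 and VIM was not tested.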

How the data were processed

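The labels' protocols describe RNA from 8 samples, measured on 1 array each after biotin labelling with a 3′ in vitro transcription kit. As given above, the Hep3B CU27 and Hep3B DMSO columns are not separate sets of measurements. The values used were the log2 signals deposited by the authors for 49395 probe sets. Their range gave the scale, which no label states. The submitters' processing notes name MAS5 without a version. How arrays were scaled to each other is not stated in the labels. The 102 control probe sets were left out. Of the rest, 44988 had 1 gene symbol. For each gene the probe set of highest mean over the 6 arrays was used. Arrays carry no read depth, so their number limits the precision.

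The 6 arrays of 3 groups were fitted with limma 3.58.1 in R 4.3.3 (lmFit, contrasts, eBayes with trend, 3 residual and 5.87 prior degrees of freedom), two-sided, with Benjamini-Hochberg adjustment over 11383 genes or 27836 probe sets tested. An exact permutation test of 2 against 2 arrays cannot go below a p of 0.333. A fold that involves 1 group below the floor is a lower bound, computed against that floor. The procedure was tested on simulated data. Members and related lists were chosen with earlier results of these data known. Named related genes were up to 3 per list, comparison and direction, by smallest p. The alternatives were other probe set rules, floors, scalings, fits without trend or without the group not compared, the replicate number as a block, and each array left out.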

Additional observations from a re-analysis of the deposited data

How the results depend on the processing

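With 2 arrays per group, single arrays decided part of the CU27 counts. In the order members, member probe sets, related genes and all genes, the counts called with CU27 were 2, 6, 25 and 2809, and with each array left out they ranged from 1 to 3, from 2 to 7, from 12 to 33 and from 893 to 2889. Such a fit leaves 1 array in a group and assumes that it varies like the others. The lowest came without Huh7.5.1 DMSO replicate 2 for all 4. Of all genes, 1515 passed without CU27 replicate 2 and 1631 without DMSO replicate 1. Without an intensity trend 1 member passed, CLDN1. Between the lines the matching counts were 7, 19, 65 and 7283, with ranges of 5 to 8, 16 to 22, 55 to 87 and 5847 to 10641 over all alternatives, none of which moved a count by over 1.5 times. Of all genes passing between lines, 64.1% were higher in Huh7.5.1, against 36.2% with arrays centred on their medians and 43.7% after quantile normalization.

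Several differences changed sign. With the mean of all probe sets CDH1 was at -0.017 and TJP1 at 0.23 with CU27, and CDH1 was at 0.67 and OCLN at -0.033 between lines, while PARD3, called at 0.65 with CU27, was at -0.39 and not called. Without _x_at and _s_at probe sets TJP1 was at 0.46 with CU27, and TPM1 was at 0.95 between lines and passed as higher (adjusted p = 0.00357), against -0.83 and a call as lower (adjusted p = 0.000694) with the probe set used. OCLN between lines was at -0.21 with arrays centred and at -0.073 after quantile normalization. With single arrays left out, CU27 differences ranged from -0.24 to 0.10 for OCLN, from -0.14 to 0.13 for TJP1 and from -0.303 to 0.046 for ESRP2. The causes were not tested.

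The Huh7.5.1 groups share replicate numbers 1 and 2, and nothing in the labels says that a number marks a shared culture or day. The deviations of same-numbered arrays correlated at 0.179 over genes tested. With the replicate block 3 members passed with CU27, ESRP1 (limma adjusted p = 0.0302) beside CLDN1 and VIM, together with 7 member probe sets, 27 related genes and 3182 genes. Unlike CLDN1 and VIM, ESRP1 lay below the floor in CU27 and DMSO and was tested because Hep3B DMSO reached the floor. No paired analysis was possible between the lines because the groups share 1 number.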
